A study of Caenorhabditis elegans with 16 samples.

Results

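The genes described here are 4 genes of the 19S regulatory particle of the C. elegans proteasome: rpn-1 and rpn-2, which encode the large scaffold subunits of its base, and rpn-10 and rpn-13, which encode its ubiquitin receptors. They were taken by gene name from a table of read counts for 19122 genes, and all 4 had counts in all 16 samples and passed the filter on low counts in every comparison. The samples are whole animals of the L4 larval stage, which precedes adulthood, with 4 replicate samples of each of 4 genotypes. The study asked how Asn-to-Asp changes in the transcription factor SKN-1 alter the genes that it activates.

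The wild type was the strain N2, listed with genotype + and no transgene. The other 3 groups carried unc-119(ed3) III, which the labels do not list for the wild type, and a single-copy insertion: mgTi21 for SKN-1t[NNNN], mgTi42 for SKN-1t[NDNN] and mgTi41 for SKN-1t[DNDD]. SKN-1t is a truncated SKN-1 without the transmembrane domain that sends SKN-1A to the endoplasmic reticulum. Its 4 letters give the residue, asparagine (N) or aspartate (D), at the 4 N-glycosylation motifs of SKN-1A. According to the study, which of these motifs are glycosylated is not known exactly. NNNN is unaltered, and NDNN and DNDD mimic light and extensive sequence editing. Each transgene was driven in all tissues by the rpl-28 promoter and carried an HA tag and GFP. Each form was represented by 1 insertion line, so the form, the insertion and the unc-119 background cannot be told apart in a comparison with the wild type. In a comparison between strains the form and the insertion still cannot be told apart. For the NDNN and DNDD groups the sample labels and the study's strain list give the strain names the other way round while agreeing on the insertion, so groups are named here by the SKN-1t form, as NNNN, NDNN and DNDD animals.

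The proteasome degrades proteins that are tagged with ubiquitin. Its 20S core is a barrel of alpha and beta rings that holds the protease sites, and the 19S particle caps the barrel, binds the tagged protein, removes the ubiquitin, unfolds the protein and threads it into the core. The base of the 19S particle holds a ring of ATPases, RPT-1 to RPT-6, that does the unfolding. RPN-1 and RPN-2 are large related proteins of repeated helices on which other parts dock: in yeast and mammals Rpn1 binds shuttle factors and the deubiquitinase Ubp6 (USP14), and Rpn2 is the site where Rpn13 sits. RPN-10 and RPN-13 bind ubiquitin chains directly, RPN-10 through ubiquitin-interacting motifs and RPN-13 through a different domain, and mammalian RPN13 also recruits the deubiquitinase UCHL5. When the proteasome is impaired, SKN-1A and its mammalian relative Nrf1 raise the transcription of proteasome subunit genes.

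In the WBcel235 genome (Ensembl annotation), rpn-1 (WBGene00004458) lies on chromosome IV from 6906420 to 6909913 on the minus strand and has 7 exons in its longest transcript. The gene rpn-2 (WBGene00004459) lies on chromosome III from 6199184 to 6202594 on the plus strand and also has 7 exons. The gene rpn-10 (WBGene00004466) lies on chromosome I from 10730712 to 10732424 on the minus strand, and rpn-13 (WBGene00016981) on chromosome III from 6340113 to 6341928 on the minus strand, each with 4 exons. Reads were counted over whole genes, so the values below do not separate transcripts.

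Reads counted per sample ranged from 23806929 to 30457636, and each member had 2196 to 18123 reads in a sample. At the lowest of these counts, counting error alone is 2.13% of the value, whereas the coefficient of variation between replicates was 4.68% to 17.6%, so the spread between samples and not the depth set the precision. Replicates were independent populations of animals according to the study's methods. As a check that the transgene was present, which does not tell its forms apart, skn-1 had 123 ± 9.03 CPM (the read count scaled to library size; SD, n = 4) in the wild type, 302 ± 26.9 in NNNN, 283 ± 28.4 in NDNN and 238 ± 22.4 in DNDD animals. The skn-1 count does not separate reads of the transgene from those of the native gene, so it is only a rough check. The study saw a reporter of the native skn-1a promoter raised in intestinal cells of DNDD animals. CPM values were scaled together over the 16 samples by the trimmed mean of M-values (TMM). Markers of germ line, sperm, oocytes, intestine, hypodermis, body muscle, pharynx and neurons all had reads in every group. RNA came from whole animals, so fewer cells of a type and less RNA per cell cannot be told apart.

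The mean levels of the 4 genes were near the wild type in NNNN animals, higher in NDNN animals and highest in DNDD animals. The scaffold gene rpn-1 was at 303, 304, 255 and 270 CPM in wild-type replicates 1 to 4, and at 226, 240, 231 and 275 CPM in NNNN. It was at 417, 444, 330 and 424 CPM in NDNN and at 665, 561, 427 and 566 CPM in DNDD. Every NDNN and DNDD sample was above every wild-type sample, the NNNN samples overlapped the wild type, and the DNDD sample of replicate 3 fell within the range of the NDNN samples.

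The second scaffold gene, rpn-2, was at 247, 250, 201 and 226 CPM in the wild type and at 205, 216, 206 and 254 CPM in NNNN. It was at 406, 422, 323 and 421 CPM in NDNN and at 630, 561, 446 and 597 CPM in DNDD. Here too the NNNN samples overlapped the wild type, and all DNDD samples lay above all NDNN samples, which lay above all others.

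The receptor gene rpn-10 was at 117, 120, 91.6 and 104 CPM in the wild type and at 88.0, 94.9, 87.5 and 104 CPM in NNNN. It was at 192, 181, 167 and 187 CPM in NDNN and at 302, 284, 231 and 254 CPM in DNDD. The receptor gene rpn-13 was at 135, 146, 119 and 130 CPM in the wild type, at 114, 118, 108 and 120 CPM in NNNN, at 213, 221, 181 and 209 CPM in NDNN and at 327, 297, 228 and 259 CPM in DNDD. For both receptor genes, as for rpn-2, the DNDD, NDNN and remaining samples formed ranges that did not overlap.

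**Figure D1:**
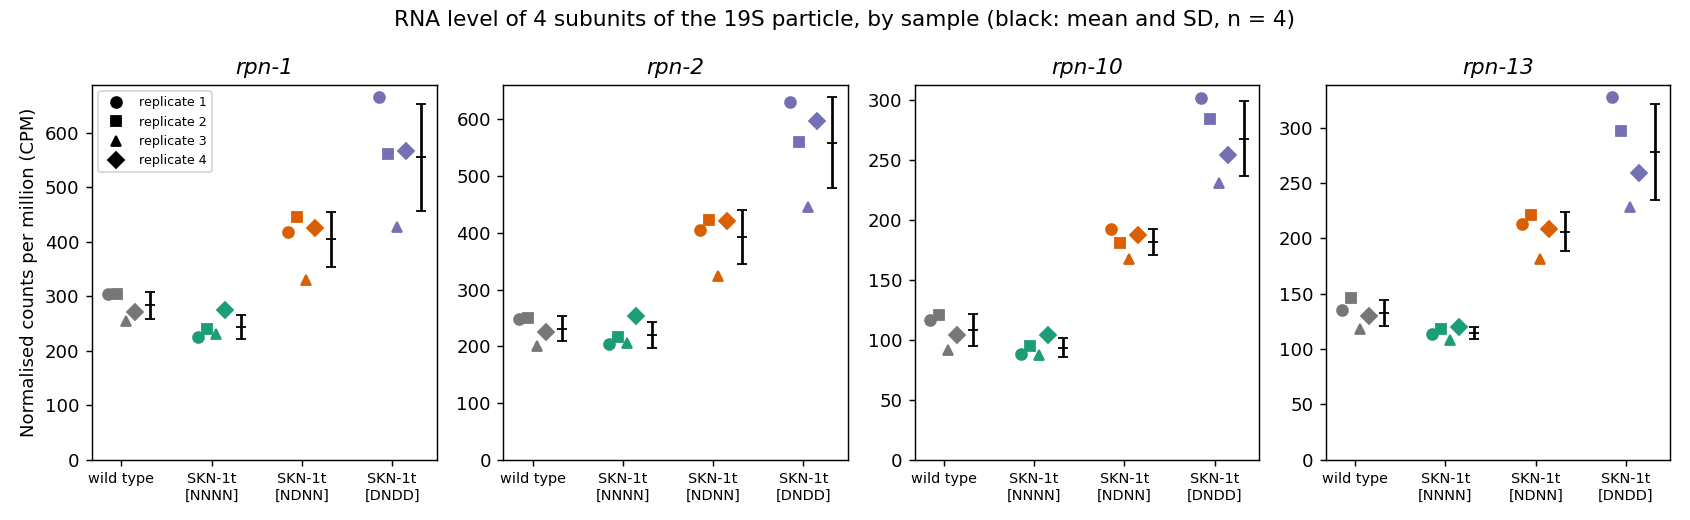
Normalised CPM (y axis, linear from 0) of rpn-1, rpn-2, rpn-10 and rpn-13 in the 4 genotypes (x axis), with 1 point per sample, its shape giving the replicate number, and black bars for the mean and SD (n = 4). Replicate 3 (triangles) is the lowest sample of the wild type, NDNN and DNDD for each gene, and the NDNN and DNDD points lie above all wild-type points.

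NNNN was the form without any substitution, and its comparison with the wild type asks whether an unedited SKN-1t raises these genes. None of the 4 passed the test (Benjamini-Hochberg adjusted p below 0.05 in edgeR's quasi-likelihood test), where 20% of the 14192 genes tested were called higher and 17.1% lower. The log2 fold change was -0.10 (95% interval -0.34 to 0.14, adjusted p = 0.486) for rpn-1 and 0.05 (-0.21 to 0.31, adjusted p = 0.760) for rpn-2. It was -0.09 (-0.35 to 0.16, adjusted p = 0.553) for rpn-10 and -0.09 (-0.28 to 0.11, adjusted p = 0.453) for rpn-13. In edgeR 0 members had an unadjusted p below 0.05, the lowest being 0.332, and DESeq2 called 0. The upper limits of these intervals lie below the changes measured in the other strains. Folds against the wild type were scaled within the 8 samples of a comparison, so they can differ from ratios of CPM: the mean CPM of rpn-1 in NNNN was 0.859 of that of the wild type, and the fitted fold was 0.933. The median of all genes in this comparison was 0.14, and the sign of rpn-2 turned with the scaling. With the all-gene median subtracted, the members were at -0.24 to -0.09, and at nearly the same values under the other scalings tried. The share called higher was 20.1% when replicates were blocked by number, and again no member passed. The NNNN sample was the higher in 1 of 4 pairs of equal replicate number for rpn-1, 2 of 4 for rpn-2 and 0 of 4 for rpn-10 and rpn-13, on CPM scaled over all samples. These pair counts are a description, since equal numbers were not shown to pair the samples in this comparison.

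In NDNN animals all 4 genes rose against the wild type, where 18.1% of 14310 genes tested were called higher (18.3% with the replicate block). The largest changes were those of rpn-2, with a log2 fold change of 0.86 ± 0.120 (SE, n = 4 and 4, adjusted p = 0.000956), and rpn-10, with 0.84 ± 0.107 (adjusted p = 0.000656). The receptor gene rpn-13 rose by 0.73 ± 0.101 (adjusted p = 0.000948) and rpn-1 by 0.61 ± 0.118 (adjusted p = 0.00473). As folds these are 1.81 for rpn-2, 1.79 for rpn-10, 1.66 for rpn-13 and 1.52 for rpn-1. All 4 were over 1.5-fold at an adjusted p below 0.05, as were 14.4% of genes, and 0 were over 2-fold at an adjusted p below 0.01, as were 6.85% of genes. A test against a change of 1.5-fold itself called only rpn-10. The NDNN sample was above the wild-type sample of equal replicate number in 4 of 4 pairs for each gene, a pattern whose share among all genes was not counted.

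In DNDD animals all 4 genes rose further from the wild type, where 13.4% of 14400 genes tested were called higher (24.3% with the replicate block). The receptor gene rpn-10 rose 2.49-fold (log2 fold change 1.31 ± 0.126, adjusted p = 0.000266) and rpn-2 rose 2.43-fold (1.28 ± 0.131, adjusted p = 0.000343). The receptor gene rpn-13 rose 2.11-fold (1.08 ± 0.131, adjusted p = 0.000672) and rpn-1 rose 1.97-fold (0.98 ± 0.142, adjusted p = 0.00153). At over 2-fold and an adjusted p below 0.01, 3 of the 4 members passed, all but rpn-1, against 3.44% of all genes (11.8% with the block, which again passed 3 members). The log2 fold change of rpn-1 lay close to this cutoff and crossed it under other settings. It was 1.08 with upper-quartile scaling, 1.21 with library totals alone and 1.002 with at least 10 counts in every sample. Leaving out 1 replicate gave 0.92 to 1.11. The adjusted p was below 0.01 in each of these fits. At over 1.5-fold and an adjusted p below 0.05, 4 of 4 passed, against 11.8% of all genes (22.1% with the block). The change of rpn-10 was larger than that of 89.3% of the genes tested, and that of rpn-1 larger than that of 82.1%. The intervals of the 4 genes overlapped, running from 0.66 to 1.30 for rpn-1 and from 1.03 to 1.60 for rpn-10.

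**Figure D2:**
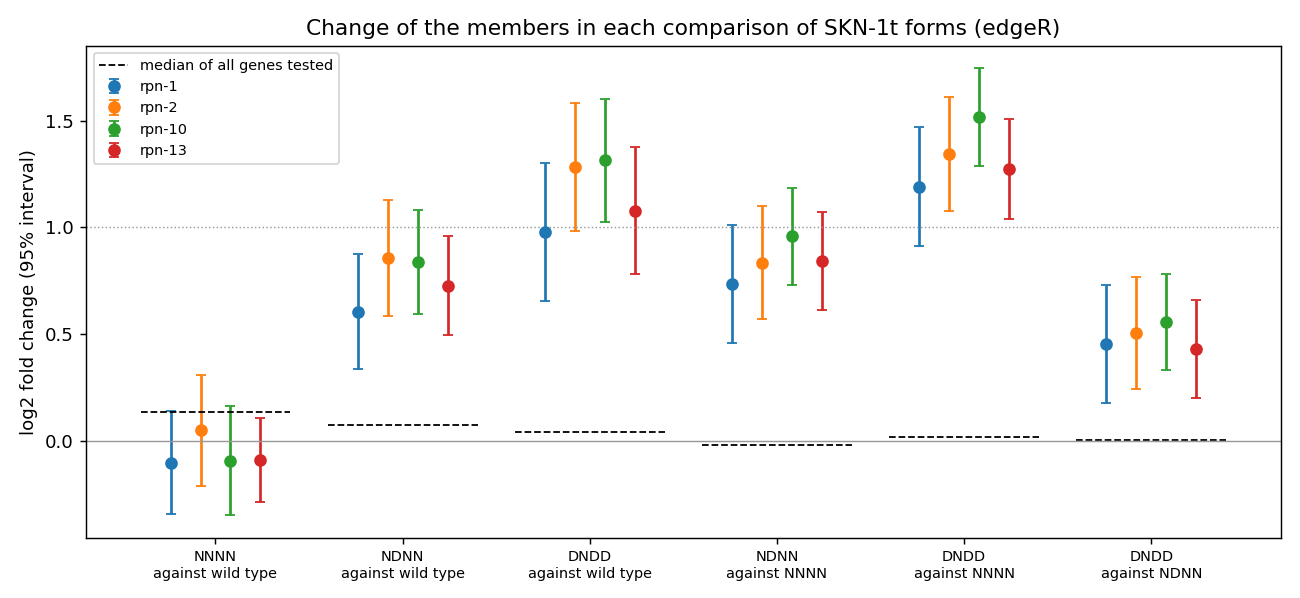
Fitted log2 fold change (y axis) of each gene in the 6 comparisons (x axis), with bars for the 95% interval, dashed black lines for the median of all genes tested and a dotted line at a 2-fold change. The NNNN intervals include 0, and the NDNN and DNDD intervals against the wild type and against NNNN lie wholly above 0.

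The direct comparisons between strains set animals with the unc-119 background against each other, in a fit whose scaling and spread also use the wild-type samples. Against NNNN, all 4 genes were higher in NDNN, where only 0.781% of 14850 genes tested were called higher (1.24% with the block). The log2 fold change was 0.96 ± 0.105 for rpn-10 (adjusted p = 9.22e-05), 0.84 ± 0.108 for rpn-13 (adjusted p = 0.000425), 0.84 ± 0.123 for rpn-2 (adjusted p = 0.00171) and 0.73 ± 0.129 for rpn-1 (adjusted p = 0.00841). None was over 2-fold at an adjusted p below 0.01, as were 0.35% of genes, and 0 were beyond 1.5-fold by the test of that threshold. Without NDNN replicate 4, rpn-1 was at 0.69 with an adjusted p of 0.0507 and 3 of 4 passed.

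Against NNNN, all 4 genes were also higher in DNDD, where 7.68% of genes were called higher (20.7% with the block). The log2 fold change was 1.52 ± 0.107 for rpn-10 (2.86-fold, adjusted p = 3.47e-07), 1.34 ± 0.125 for rpn-2 (2.54-fold, adjusted p = 5.51e-06), 1.27 ± 0.109 for rpn-13 (2.42-fold, adjusted p = 2.52e-06) and 1.19 ± 0.130 for rpn-1 (2.28-fold, adjusted p = 3.30e-05). All 4 were over 2-fold at an adjusted p below 0.01, against 1.88% of genes (6.23% with the block). In these libraries skn-1 itself was lower in DNDD than in NNNN (log2 fold change -0.34 ± 0.0975, adjusted p = 0.0324), in counts that do not separate the transgene from the native gene.

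Between DNDD and NDNN, the forms with 3 and with 1 substitution, the 4 genes were at log2 fold changes of 0.43 to 0.56 and 1 of the 4 passed the test, rpn-10 (0.56 ± 0.105, adjusted p = 0.0151), where 0.747% of genes were called higher. The values were 0.51 ± 0.123 for rpn-2 (adjusted p = 0.0544), 0.46 ± 0.129 for rpn-1 (adjusted p = 0.0934) and 0.43 ± 0.107 for rpn-13 (adjusted p = 0.0591). All 4 had an unadjusted p below 0.05, for which the share of all genes was not counted. With the replicate number as a block, all 4 genes passed, with adjusted p of 0.0114 for rpn-1, 0.00463 for rpn-2, 0.00238 for rpn-10 and 0.00584 for rpn-13, while the share of all genes called higher went to 14.8%. None was over 1.5-fold at an adjusted p below 0.05, without or with the block, as were 0.512% and 12.6% of genes. The DNDD sample was above the NDNN sample of the same number in 4 of 4 pairs for each gene. The share of all genes with such pairs was not counted. The count was 0 when only the 8 samples of these groups were fitted, and it depended on single libraries: it was 0 without NDNN replicate 2 and 4 without DNDD replicate 3.

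The non-overlap of samples seen above is common to many genes in some comparisons. All samples of the strain lay above all samples of the wild type for 16.1% of the genes tested in NDNN and for 12.5% in DNDD. All NDNN samples lay above all NNNN samples for 4.67% of genes, and all DNDD samples above all NNNN samples for 8.12%. The 4 members did so in each of these comparisons. All DNDD samples lay above all NDNN samples for 3.33% of genes and for 3 of the 4 members, with rpn-1 as the exception.

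The levels of the members were compared with each other per length of gene (RPKM, the CPM divided by the deposited gene length in kilobases). In the wild type the means were 89.1 ± 7.74 RPKM for rpn-1, 89.0 ± 7.81 for rpn-13, 82.4 ± 9.96 for rpn-10 and 73.8 ± 7.20 for rpn-2. In DNDD animals they were 204 ± 23.9 for rpn-10, 187 ± 29.2 for rpn-13, 178 ± 25.6 for rpn-2 and 175 ± 30.8 for rpn-1. Thus rpn-1 stood at the top of the order in the wild type and at its foot in DNDD, although in neither group did neighbours in the order differ by more than the larger of their SDs. The ATPase genes of the 19S base were at 125 to 159 RPKM in the wild type and at 259 to 399.7 RPKM in DNDD, so each member was below each ATPase gene in those groups. The genes of the 20S core were at 174 to 302 RPKM in the wild type.

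Ratios within a sample depend little on how libraries are scaled, only through the pseudocount. The level of rpn-1 relative to the mean of rpt-1 to rpt-6, on the log2(CPM + 1) scale, was 0.43 ± 0.0698 in the wild type, 0.18 ± 0.112 in NDNN and 0.21 ± 0.141 in DNDD. The difference was -0.25 in NDNN and -0.22 in DNDD, and in 0 of 4 pairs of equal replicate number was the strain the higher. The ratio of rpn-13 was lower by a smaller amount, with differences of -0.13 in NDNN and -0.12 in DNDD, again with 0 of 4 pairs higher. The ratio of rpn-10 was 0.12 higher in DNDD in 4 of 4 pairs. In NNNN the difference was 0.08 for rpn-1 (2 of 4 pairs higher), 0.23 for rpn-2 (4 of 4), 0.09 for rpn-10 (4 of 4) and 0.10 for rpn-13 (3 of 4).

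Ratios between members were compared in the same way. The log2 ratio of rpn-1 to rpn-2 was 0.29 ± 0.0339 in the wild type, 0.14 ± 0.0205 in NNNN, 0.04 ± 0.0267 in NDNN and -0.02 ± 0.0700 in DNDD. The differences from the wild type were -0.15, -0.25 and -0.31 in these strains, with 0 of 4 pairs higher in each, and the samples of each strain did not overlap those of the wild type. The log2 ratio of rpn-1 to rpn-10 differed from the wild type by -0.24 in NDNN and by -0.34 in DNDD, and that of rpn-10 to rpn-13 was 0.24 higher in DNDD. Of the 30 ratio comparisons, 15 gave the smallest two-sided p that an exact permutation test of 4 against 4 samples can give, 0.029, and the adjusted p of these was 0.0571, so 0 of the 30 passed a threshold of 0.05 after adjustment.

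**Figure D3:**
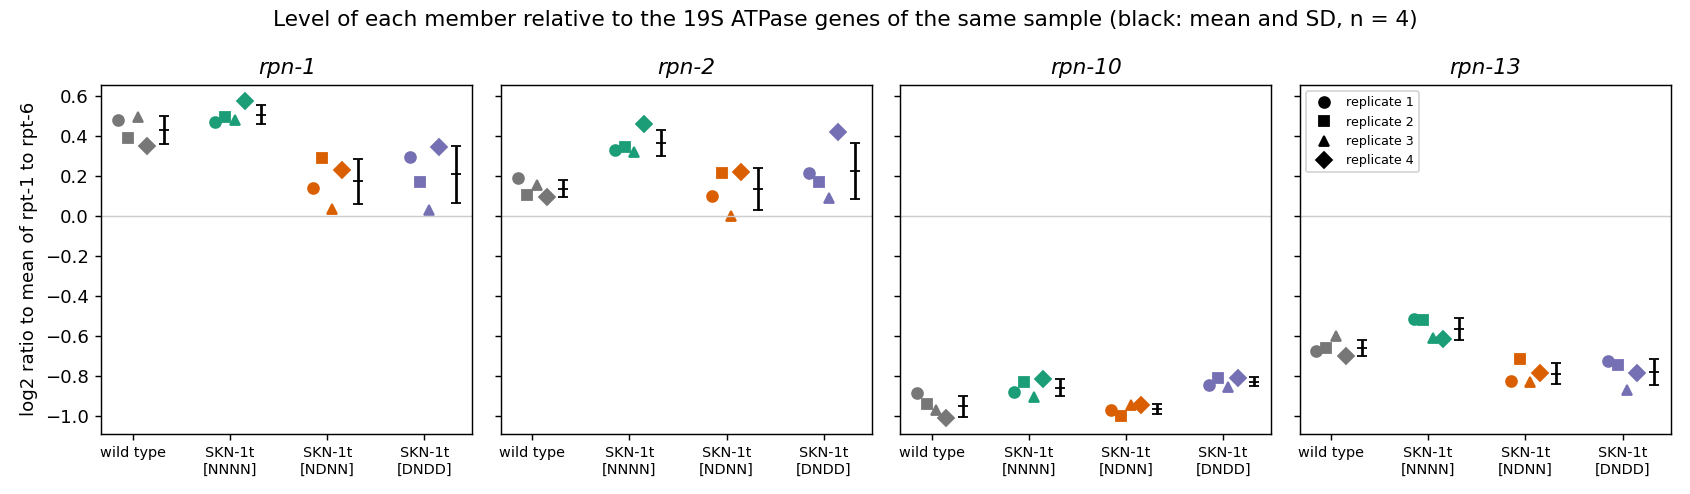
Log2 ratio of each gene to the mean of the 6 ATPase genes of the same sample (y axis) in the 4 genotypes (x axis), with 1 point per sample, its shape giving the replicate number, and black bars for the mean and SD (n = 4). The rpn-1 ratio is 0.43 in the wild type and 0.18 and 0.21 in NDNN and DNDD, and the rpn-10 ratio lies near -0.9 throughout.

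The members moved with the rest of the proteasome. Among 19 genes of the 19S particle, that is the 4 members, the 6 ATPase genes and 9 lid genes, 19 of 19 rose in DNDD against the wild type and 15 of these by over 2-fold, with log2 fold changes of 0.93 to 1.39, where 13.4% of all genes were called higher (24.3% with the block) and 3.44% by over 2-fold at an adjusted p below 0.01. In this order of 19, rpn-10 was the 4th highest, rpn-2 the 6th, rpn-13 the 12th and rpn-1 the 18th. In NDNN 19 of 19 rose as well (0.53 to 1.09), against 18.1% of all genes, and in NNNN 0 of 19 were called higher (-0.37 to 0.09), against 20%. The 10th lid gene of the list, rpn-6.2, is a paralog of rpn-6.1 and did not pass in any of the 3 strains (0.56 ± 0.355 in DNDD, adjusted p = 0.244).

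The medians of the members were close to those of the other parts of the 19S particle. In DNDD the median log2 fold change was 1.18 for the members, 1.22 for the ATPase genes, 1.07 for the lid genes, 1.39 for the alpha ring and 1.35 for the beta ring, against 0.04 for all genes. The extremes of these classes were rpt-4 (1.34) and rpt-6 (0.93) among the ATPases, rpn-8 (1.39) and rpn-6.2 (0.56) in the lid, pas-5 (1.75) and pas-4 (1.24) in the alpha ring and pbs-4 (1.51) and pbs-5 (1.19) in the beta ring. In NDNN the medians were 0.78 for the members, 0.88, 0.82, 1.02 and 0.92 for the other classes in the same order, and 0.08 for all genes. In NNNN the medians were -0.09 for the members and -0.13, -0.07, -0.14 and -0.25 for the others. There rpt-6 (-0.37 ± 0.0993, adjusted p = 0.0192), pbs-2 (-0.42 ± 0.102, adjusted p = 0.0124) and pbs-4 (-0.25 ± 0.0836, adjusted p = 0.0449) fell, the last with an adjusted p of 0.101 under the replicate block, and none of the 4 members passed. These comparisons share the wild-type samples.

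**Figure D4:**
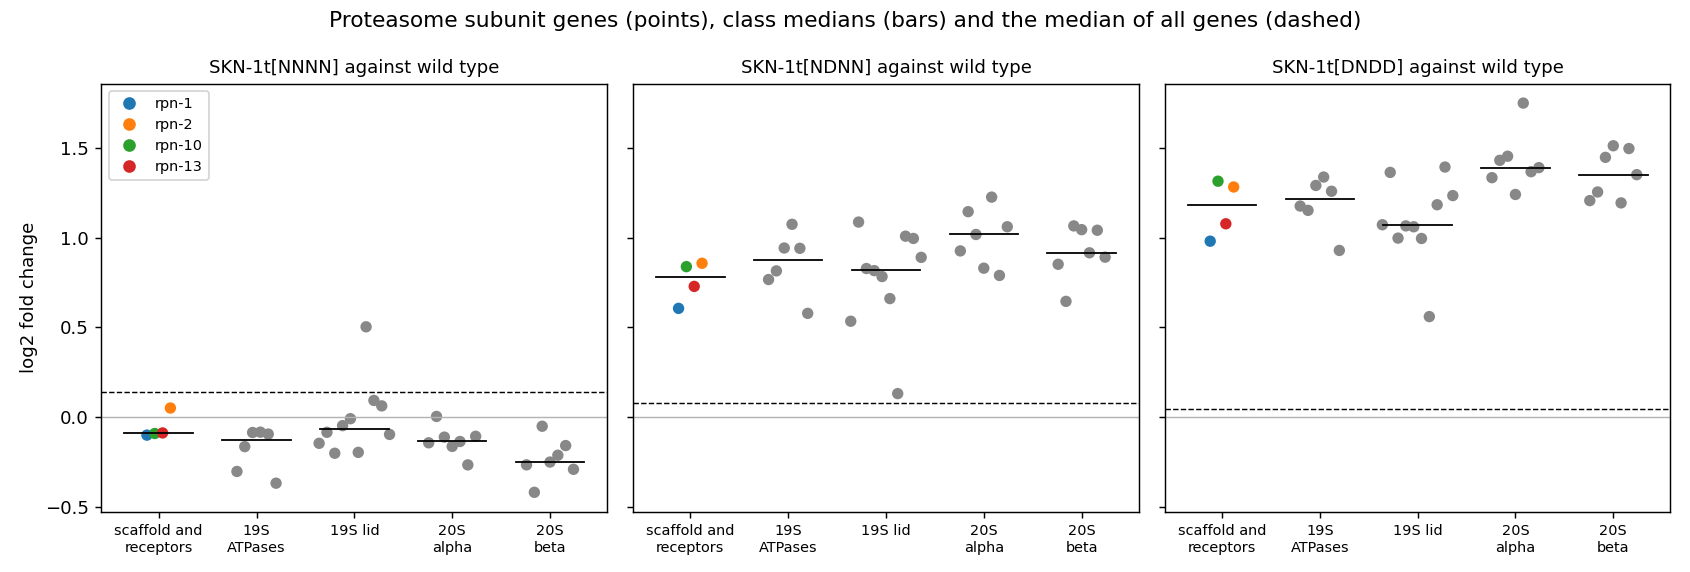
Log2 fold change against the wild type (y axis) of proteasome genes by class (x axis) in each of the 3 strains, with 1 point per gene, solid bars for class medians and a dashed line for the median of all genes tested. The coloured members lie between 0.98 and 1.31 in DNDD, below most 20S genes, and between -0.10 and 0.05 in NNNN.

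Proteins that work with these subunits bring ubiquitinated proteins to the particle or trim the ubiquitin chains. Of 5 such genes, 4 rose in DNDD and 4 in NDNN, against 13.4% of all genes in DNDD (24.3% with the block) and 18.1% in NDNN. The shuttle factor gene rad-23 rose by 1.11 ± 0.138 (adjusted p = 0.000785) in DNDD and by 0.92 ± 0.116 (adjusted p = 0.000619) in NDNN, and by 0.33 ± 0.106 (adjusted p = 0.0376) in NNNN, where no member rose. The aspartic protease gene ddi-1, which also belongs to the shuttle family, rose by 1.14 ± 0.0859 in DNDD and by 0.52 ± 0.0759 in NDNN. The gene ubh-4, the worm ortholog of the UCHL5 deubiquitinase that mammalian RPN13 recruits, rose by 0.90 ± 0.143 in DNDD and by 0.52 ± 0.0944 in NDNN, where rpn-13 rose by 1.08 and 0.73.

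The deubiquitinase gene usp-14 rose by 0.95 ± 0.153 in DNDD and by 0.42 ± 0.139 in NDNN (adjusted p = 0.0467), and was at -0.51 ± 0.177 in NNNN (adjusted p = 0.0532). The shuttle factor gene ubql-1 was at -0.09 ± 0.116 in DNDD (adjusted p = 0.556), 0.09 ± 0.0923 in NDNN and 0.17 ± 0.0665 in NNNN, and passed in none of them. The polyubiquitin genes ubq-1 and ubq-2 did not pass in any strain either, with -0.01 ± 0.11 and -0.10 ± 0.104 in DNDD. Of 5 assembly and associated factors listed, 1 was found in the table by name, psmd-9, an orthologue of an assembly chaperone of the base, which was at 0.05 ± 0.164 in DNDD (adjusted p = 0.831).

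Each member was also compared with its genomic neighbours. Upstream of rpn-10 on the same strand and 118 bp away lies mrpl-9, a mitochondrial ribosomal protein gene that the study's gene list places in an operon with rpn-10. Its mean was 94.6 ± 2.53 CPM in wild-type animals, 94.5 ± 9.23 CPM in NNNN, 171 ± 24.9 CPM in NDNN and 236 ± 38.8 CPM in DNDD, and its log2 fold changes from the wild type in these strains were 0.11 ± 0.0716 (adjusted p = 0.241), 0.95 ± 0.114 (adjusted p = 0.000512) and 1.32 ± 0.128 (adjusted p = 0.000276). The changes of rpn-10 were 0.84 in NDNN and 1.31 in DNDD, so the pair rose in the same strains by like amounts. The next genes on the other side of rpn-10 and upstream of rpn-13, B0205.8 and C56G2.9, did not pass in either of these strains.

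Most of the other neighbours did not pass in the same direction as the members. The gene let-767, which encodes a steroid dehydrogenase family enzyme, lies 143 bp downstream of rpn-13 on the same strand and fell in all 3 strains, by 0.36 on the log2 scale in NNNN, by 0.52 in NDNN and by 0.91 in DNDD. The gene B0205.12, on the opposite strand, overlaps rpn-10 by 32 bp and fell by 0.94 in DNDD (adjusted p = 0.00625). Libraries were stranded, and the strand setting of the counting is not given in the sources used here, so reads in this overlap may be split uncertainly. Near rpn-2, the upstream gene C23G10.5 (means of 2.58 to 3.48 CPM in the strains) was higher in all 3 strains, including NNNN, and the ribosomal protein gene rps-3 did not pass in any. T22D1.8, 71 bp downstream of rpn-1, rose in DNDD (log2 fold change 1.40 ± 0.340, adjusted p = 0.0165) from 0.46 ± 0.143 to 1.22 ± 0.342 CPM, and was at 0.37 ± 0.352 in NDNN (adjusted p = 0.478). The gene ruvb-2, upstream of rpn-1, did not pass.

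Over the 16 samples, the genes whose profiles were most like those of the members were again mostly proteasome genes. Likeness was Pearson's r of log2(CPM + 1) over 13065 genes with a mean of at least 1 CPM, and is a description, since samples of 1 group share their transgene and libraries. For rpn-1 the 5 most alike were rpn-6.1, rpn-2, the deubiquitinase gene usp-5, rpn-13 and cdc-48.1, the last encoding the p97 segregase that extracts ubiquitinated proteins (r = 0.985 to 0.989). For rpn-2 they were rpn-5, rpt-5, rpn-10, rpn-1 and rpn-13 (0.985 to 0.988). For rpn-10 they were pbs-6, Y57E12AL.6, rpt-3, rpt-2 and rpn-13 (0.993 to 0.994), and for rpn-13 pbs-6, rpt-2, rpn-5, pas-1 and rpn-6.1 (0.993 to 0.995).

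Mean levels in replicates 1 and 2 differed from those in replicates 3 and 4. On the log2 scale, the mean of replicates 3 and 4 minus that of replicates 1 and 2 was -0.28 to -0.18 for the 4 genes in the wild type, -0.20 to -0.08 in NDNN and -0.36 to -0.20 in DNDD, but -0.03 to 0.12 in NNNN. For the members this was not always a shift of both later replicates. Replicate 4 lay between replicates 1 and 2 for rpn-1, rpn-2 and rpn-10 in NDNN, and for rpn-1 and rpn-2 in DNDD. Replicate 3 was the lowest there. In NNNN replicate 4 was the highest for each gene. In every group the summed level of 6 germ line markers was higher in replicates 3 and 4, with means over these of 171 CPM in the wild type, 462 in NNNN, 248 in NDNN and 606 in DNDD, against 53.6, 116, 75.9 and 149.6 CPM in replicates 1 and 2. Within replicates 1 and 2 alone the log2 difference between DNDD and the wild type was 1.01 for rpn-1, 1.26 for rpn-2, 1.30 for rpn-10 and 1.14 for rpn-13, and within replicates 3 and 4 alone it was 0.90, 1.27, 1.30 and 0.96. For NDNN it was 0.50, 0.73, 0.65 and 0.62 in the first pair and 0.51, 0.79, 0.85 and 0.65 in the second. For NNNN it was -0.38, -0.24, -0.37 and -0.28 in the first pair and -0.06, 0.10, -0.04 and -0.12 in the second.

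Markers of several tissues differed between the groups. Over all samples the germ line sum was 52.9 to 172 CPM in the wild type, 98.0 to 701 in NNNN, 75.1 to 359 in NDNN and 96.2 to 925 in DNDD. The sum of 5 oocyte and eggshell markers reached 61.5 CPM in the wild type, 80.6 in NNNN, 61.0 in NDNN and 373 in DNDD, where the highest value was replicate 4 and the next 145 CPM. The sum of 5 sperm markers reached 57.9, 96.4, 50.9 and 155 CPM in the same order. The sum of 5 intestinal markers was 4818 to 12248 CPM in the wild type and 2279 to 3371 CPM over the 3 strains. The yolk protein gene vit-2 made up 21.0% to 56.6% of this sum in the wild type. Its share was 0.299% to 1.07% in NNNN, 0.346% to 7.83% in NDNN and 0.628% to 36.3% in DNDD. Without vit-2 the sum was 3805 to 5312 CPM in the wild type. In NNNN, NDNN and DNDD it was then 2254 to 3025, 2585 to 2751 and 2111 to 2594 CPM. The body muscle sum (3 genes) was 1900.1 to 2409.8 CPM in the wild type and 2203 to 4196 CPM in the strains, and the pharynx sum (2 genes) was 35.9 to 72.7 and 11.5 to 64.4 CPM. The hypodermis and cuticle sum (4 genes) was 1524 to 2877 CPM in the wild type and 1368 to 3472 CPM in the strains. Single genes of this list moved far in both directions. The lowest log2 fold change was -8.26 in NNNN, -4.45 in NDNN and -1.67 in DNDD, and the highest was 2.74, 2.77 and 2.22. NNNN animals, with intestinal sums of 2279 to 3034 CPM and muscle sums of 2820.1 to 4196 CPM, had none of the 4 members past the test. The oocyte and sperm sums reached 80.6 and 96.4 CPM in NNNN, 61.0 and 50.9 CPM in NDNN, and 373 and 155 CPM in DNDD. In DNDD against NDNN, where the members passing went from 1 to 4 with the replicate block, the block also took the germ line markers called higher from 0 to 6 of 6, the oocyte markers from 0 to 5 of 5 and the sperm markers from 0 to 4 of 5. The part of these tissues in the changes of the members was not tested. Whether the groups differed in stage within L4, and the part of this in those changes, was not tested either.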

How the data were processed

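RNA from 16 samples was sequenced as stranded poly(A)-selected paired-end libraries, which the authors aligned to WBcel235 with STAR 2.7.7a (per the study's methods, which also name FastQC 0.11.9) and deposited as raw counts of reads per gene. The gene lengths deposited beside the counts were used for RPKM, in base pairs as the authors gave them. Counts were tested with edgeR 4.0.16 in R 4.3.3 (genes kept by filterByExpr at 10 counts and 15 in total, scaling by TMM, glmQLFit and glmQLFTest with legacy quasi-dispersions). Each strain was fitted with the wild type in 8 samples, with the filter and scaling that the study names, and strains were compared with each other in 1 fit of all 16 samples. P-values were adjusted over all genes tested. A standard error is the log2 fold change divided by the root of F. Ratios were compared on log2(CPM + 1) by two-sided exact permutation tests with scipy 1.17.1.

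Replicate numbers come from the sample titles. Deviations of samples with equal numbers from their group means correlated above 0.1 in every pair of 5 of the 6 comparisons (0.242 to 0.850), so the numbers were taken to pair the samples there and values with the replicate number as a block are given where they change a call. Values given without mention of the block are from fits without it. The permutation tests of ratios did not use the pairing. In NNNN against the wild type the correlations were 0.0984, 0.541, -0.0408 and 0.614. Pairing was not taken as shown there, so pair counts of this comparison, those of ratios included, are a description. The study names no batch.

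Named genes are the 4 members, the extremes of each proteasome class, short lists of partner genes in full, the nearest genes on the same strand, any gene overlapping a member, and the 5 genes with the most similar profile. The members and lists were chosen with earlier results of these data known. Alternatives were other scalings, no filter or at least 10 counts in every sample, DESeq2 1.42.0, a single fit, the replicate block, a term for replicates 1 and 2 against 3 and 4, and leaving out each sample. Replicates 1 and 2 or 3 and 4 alone and the test beyond 1.5-fold (glmTreat) were added after seeing the data. The fits were run on simulated counts that had a fixed spread for all genes and no replicate effect. That run checks the code and does not show how often such calls are right in these data. All columns of the count table were used. No sequences are printed, since none were given for these genes.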

Additional observations from a re-analysis of the deposited data

Results flagged for a closer look

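In the 16 groups of 4 samples (4 genes in 4 genotypes), 1 sample stood apart from the others of its group by Dixon's test: rpn-2 in NDNN replicate 3, at 323 CPM, where replicates 1, 2 and 4 were at 406, 422 and 421 CPM. The gap to the nearest sample was 0.835 of the range of the group. Chance flags about 1 in 20 such groups. The same library was the lowest of its group for rpn-1, rpn-10 and rpn-13.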

How the results depend on the processing

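The calls of DNDD against the wild type and against NNNN were the same for all 4 genes in the 72 gene-level alternatives of each comparison that gave a test. The ratios to the ATPase genes were tested again with no pseudocount and with the median of the ATPase genes, and as before 0 passed after adjustment; the ratio of rpn-2 in NDNN turned from -0.0017 to 0.0068 with that median. With 1 sample left out the ratios were recomputed as values only. Against the wild type, scaling by library totals alone moved the median of all genes by 0.23 (log2) in DNDD, where the members then were at 1.21 to 1.55, and less the all-gene median at 0.94 to 1.27, as before. In NNNN against the wild type, where no member passed under any setting, signs turned: rpn-10 was at 0.00033 and rpn-13 at 0.0027 with library totals alone, and rpn-2 at -0.026 with DESeq2 size factors, -0.026 in the DESeq2 Wald test, -0.011 with no filter, -0.069 in 1 fit of all samples and -0.069 to 0.092 over the settings that left out 1 replicate. The count of members passing in DNDD against NDNN was 1, and it was 3 with upper-quartile scaling, library totals or at least 10 counts in every sample, 4 with DESeq2, with the replicate block and with a term for replicates 1 and 2 against 3 and 4, 0 when only the 8 samples of the 2 groups were fitted and 0 by glmTreat, and leaving out 1 replicate gave 0 to 4. By glmTreat beyond 1.5-fold, 0 passed in NDNN against NNNN and 1 in NDNN against the wild type. The share of all genes called was counted only without and with the replicate block, at 0.747% and 14.8% in DNDD against NDNN. The counts under the other settings, DESeq2 and glmTreat among them, have no such share beside them in any comparison. Whether they exceed a general rise in calls was not tested. The causes were not tested. Of 108 alternatives to the counts, 96 stayed within 1.5 times. The replicate block changed no other call of the members. Counting error was below the spread between replicates for these genes.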

Other observations

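Of 5 listed genes of the pathway that activates SKN-1A in the cell, 2 rose and 3 fell in DNDD against the wild type. In this comparison 13.4% of all genes were called higher and 16.4% lower (24.3% and 18.4% with the block). Apart from ddi-1, the protease that cleaves SKN-1A, and skn-1 itself, the genes of this list were lower in DNDD than in the wild type: png-1, the peptide N-glycanase that edits the protein, by a log2 fold change of -0.43 ± 0.102 (adjusted p = 0.0152), and sel-1 and sel-11, which act in its release from the endoplasmic reticulum, by -0.38 ± 0.0988 (adjusted p = 0.0220) and -0.41 ± 0.0848 (adjusted p = 0.00854). None of these 3 genes passed in NDNN, at -0.16, -0.12 and -0.20, or in NNNN, at -0.13, -0.04 and -0.19. In the direct comparisons of DNDD with the other 2 strains their adjusted p was 0.0825 or higher. With the replicate block png-1 (adjusted p = 0.0490) and sel-1 (adjusted p = 0.0215) were lower in DNDD than in NNNN. The block took the share of all genes called lower there from 5.95% to 14.6%.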
